A study of Mus musculus with 4 samples.

Results

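The stromal and matrix genes of the mouse islet described here were 10 genes chosen by name, *Col1a1*, *Col1a2*, *Col3a1*, *Col4a1*, *Col4a2*, *Sparc*, *Dcn*, *Pdgfrb*, *Acta2* and *Fn1*, of 24157 gene symbols in the table. Where a symbol had several entries, the entry with the highest mean over the 4 libraries stood for the gene. Whole islets of wild type male C57bl6 mice, 3 months old, came from a common pool, were kept overnight at 11 mM glucose and held for 2 h at 2.8 mM, and were then given a low (2.8 mM) or high (16.8 mM) glucose concentration, with 2 RNA-seq libraries for each. The design text gives 12 h for both concentrations, but in the labels the low-glucose libraries carry 2 h and only the high-glucose libraries 12 h. If the labels are right, time and glucose cannot be told apart. As all islets came from 1 pool, p-values measure only the spread between these libraries and not that between mice.

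Between the endocrine cells of an islet run capillaries, and along them lie pericytes, fibroblasts and a thin basement membrane. Fibroblasts and related mesenchymal cells secrete the fibrillar collagens of the interstitial matrix, whereas the type IV collagens form the sheet-like network under endothelial cells. In mouse islets this basement membrane is laid down largely by endothelial cells, and beta cells contact it through integrins.

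The main observation on these 10 genes was the spread between the 2 libraries at 2.8 mM glucose. Replicate 2 at 2.8 mM was the lowest of the 4 libraries for 9 of the 10 genes, all but *Acta2*, where 27.6% of all 16234 transcripts tested had their lowest value in that library. At 2.8 mM, replicate 1 was at least 1.5 times replicate 2 for 9 of the 10 genes and for 3.83% of transcripts tested, whereas at 16.8 mM no member and 3.36% of transcripts tested had such a gap in that direction. Of the 9 members tested, 0 passed the limma test of 16.8 mM against 2.8 mM glucose at an adjusted p under 0.05, against 29.8% of all transcripts tested, and 1 had an unadjusted p under 0.05. *Acta2*, which encodes the actin of smooth muscle cells and contractile pericytes, was the only member whose groups did not overlap, with both 16.8 mM libraries below both 2.8 mM libraries, where 71.3% of transcripts tested had groups that did not overlap.

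Promoters are shown for 3 members, *Col4a1* and *Col4a2* because they share theirs and kept the steadiest ratio of 6 gene pairs compared, and *Acta2* because its levels stood apart from those of the other members. The 6 pairs were picked by hand and other pairs of members were not compared, so a steady ratio is not shown to be particular to this pair. Each runs from 250 bases before to 50 bases after the start site, 5′ to 3′ on the strand of the gene, from RefSeq on the GRCm38.p6 build. Promoters of 6 of the 10 members were in the table used here. Capitals mark the 78 bases that the windows of *Col4a1* (chr8:11312777-11313076, minus strand) and *Col4a2* (chr8:11312555-11312854, plus strand) have in common, each as the reverse complement of the other, and in *Acta2* (chr19:34255324-34255623, minus strand) the letters of a CArG box, the sequence bound by serum response factor, with up to 1 mismatch in its A/T core.
Col4a1: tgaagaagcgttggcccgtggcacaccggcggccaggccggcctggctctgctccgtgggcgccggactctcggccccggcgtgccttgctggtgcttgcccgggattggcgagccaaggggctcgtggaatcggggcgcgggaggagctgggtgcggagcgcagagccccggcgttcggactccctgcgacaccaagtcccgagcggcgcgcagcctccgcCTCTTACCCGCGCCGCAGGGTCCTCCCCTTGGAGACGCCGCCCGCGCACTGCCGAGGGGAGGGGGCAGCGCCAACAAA
Col4a2: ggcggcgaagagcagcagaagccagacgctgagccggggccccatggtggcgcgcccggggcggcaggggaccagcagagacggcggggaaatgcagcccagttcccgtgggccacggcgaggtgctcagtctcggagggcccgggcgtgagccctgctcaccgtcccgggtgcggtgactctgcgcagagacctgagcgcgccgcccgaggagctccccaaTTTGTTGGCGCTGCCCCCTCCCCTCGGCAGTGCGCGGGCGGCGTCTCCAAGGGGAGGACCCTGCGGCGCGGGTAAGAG
Acta2: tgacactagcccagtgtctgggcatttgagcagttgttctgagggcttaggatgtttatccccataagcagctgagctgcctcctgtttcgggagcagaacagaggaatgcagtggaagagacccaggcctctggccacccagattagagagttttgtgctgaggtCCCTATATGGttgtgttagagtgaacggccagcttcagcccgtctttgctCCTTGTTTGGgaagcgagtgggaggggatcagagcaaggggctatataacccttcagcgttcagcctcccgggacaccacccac
The start sites of the type IV collagen genes lay 21 bp apart, head to head. The CArG-like matches of *Acta2* were CCCTATATGG, which began 84 bp before its start site, and CCTTGTTTGG, which began 34 bp before it. On either strand, with these settings, 9.98% of 32851 promoters of the same length hold such a match. Among the other members with an entry, *Col1a2* held 1 match (CCAAACTTGG), and *Col3a1*, *Col4a1*, *Col4a2* and *Sparc* held none. CCAAT, the letters of a CCAAT box searched on both strands, was found in 37.4% of promoters, with 2 matches in *Col1a2* and 1 each in *Col4a1* and *Col4a2*. GGGCGG, the core of a GC box searched in the same way, was found in 35.7% of promoters and occurred once in *Col4a1*, 3 times in *Col4a2* and 2 times in *Col1a2*. TATAAA, in 13.6% of promoters, occurred once in *Col3a1*.

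Values are RPKM, reads scaled to length in kilobases and to library depth, and in the deposited table the length was taken over the whole genomic span of a transcript, introns included. Library depth, recovered from the table, ran from 50780000 to 60675000 reads. Genes with long introns therefore have low values here, and the members' means ran from 0.0859 RPKM for *Dcn* to 1.52 RPKM for *Sparc*, on between 90 and 5280 reads per library. The beta cell hormone *Ins2* had between 15943 and 30018 RPKM, so the libraries were islet RNA in which the stromal and matrix genes are a small part. In whole islets, fewer stromal cells and less RNA per stromal cell cannot be told apart.

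**Figure D1:**
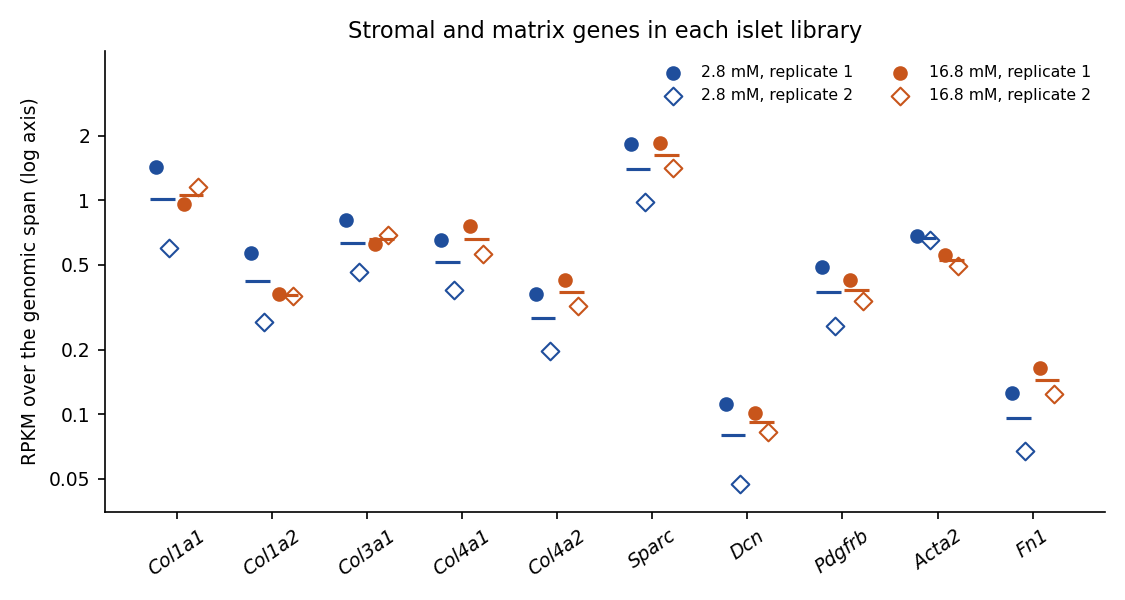
RPKM of the 10 genes in each library on a log axis, with blue for 2.8 mM and orange for 16.8 mM glucose, filled circles for replicate 1, open diamonds for replicate 2 and short lines for group means. The open blue diamond is the lowest point for 9 genes, and for *Acta2* both orange points, at 0.558 and 0.495 RPKM, lie below both blue points.

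The members' levels were first put in order per kilobase of exon, a scale chosen after the data were seen, on the assumption that all reads lay in exons. *Sparc* had the highest mean, 16.9 RPKM over exons, followed by *Col4a1* at 10.2, *Col4a2* at 6.90, *Acta2* at 4.78 and *Col3a1* at 4.43. *Col1a1* at 2.94, *Pdgfrb* at 2.78, *Col1a2* at 2.63, *Dcn* at 1.90 and *Fn1* at 1.05 followed on the same scale. *Sparc* exceeded *Col4a1*, *Col4a1* exceeded *Col4a2*, *Col3a1* exceeded *Col1a1*, *Col1a2* exceeded *Dcn* and *Dcn* exceeded *Fn1* in all 4 libraries. The order of *Acta2* and *Col3a1*, and that of *Col1a1* and *Pdgfrb*, held in 2 of the 4 libraries, so these neighbours did not differ beyond their spread. For every pair of neighbours the ranges over the 4 libraries overlapped.

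The fibrillar collagens form the rope-like fibers of the interstitial matrix, with *Col1a1* and *Col1a2* encoding the chains of type I collagen and *Col3a1* that of type III collagen. *Col1a1* (NCBI build 37, chr11:94797538-94814356, plus strand, 51 exons) measured 1.43 and 0.596 RPKM at 2.8 mM and 0.959 and 1.16 RPKM at 16.8 mM, replicate 1 first. *Col1a2* (chr6:4455493-4491543, plus strand, 52 exons) measured 0.567 and 0.271 RPKM at 2.8 mM and 0.366 and 0.356 RPKM at 16.8 mM. *Col3a1* (chr1:45368383-45406551, plus strand, 51 exons) measured 0.805 and 0.463 RPKM at 2.8 mM and 0.624 and 0.690 RPKM at 16.8 mM. In each of these genes the 2.8 mM libraries were the highest and the lowest of the 4, with both 16.8 mM libraries between them, so the groups overlapped. The fold between the 2.8 mM libraries was 2.39 for *Col1a1*, 2.09 for *Col1a2* and 1.74 for *Col3a1*. The difference of group means in log2(RPKM + 0.1), 16.8 mM minus 2.8 mM and called the log2 fold change, was 0.16 for *Col1a1* (SE 0.39, 95% interval -0.88 to 1.20, limma adjusted p = 0.768). It was -0.11 for *Col1a2* (SE 0.29, interval -0.88 to 0.66, limma adjusted p = 0.788) and 0.08 for *Col3a1* (SE 0.24, interval -0.55 to 0.72, limma adjusted p = 0.805). These intervals reach beyond 1.5-fold in at least 1 direction, so changes of that size were not detectable with these libraries.

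*Col4a1* and *Col4a2* encode the chains of the common form of type IV collagen, the network-forming collagen of basement membranes. *Col4a1* (chr8:11198423-11312826, minus strand, 52 exons) measured 0.653 and 0.381 RPKM at 2.8 mM and 0.760 and 0.560 RPKM at 16.8 mM. *Col4a2* (chr8:11312805-11449287, plus strand, 48 exons) measured 0.363 and 0.198 RPKM at 2.8 mM and 0.424 and 0.319 RPKM at 16.8 mM. The annotated spans of these neighbours overlap by 22 bp on opposite strands. Their order over the libraries was the same, with replicate 1 at 16.8 mM highest, then replicate 1 at 2.8 mM, replicate 2 at 16.8 mM and replicate 2 at 2.8 mM. *Sparc* and *Fn1* had this order too, so it was not particular to the pair. The ratio of *Col4a1* to *Col4a2* in RPKM was 1.80 and 1.93 at 2.8 mM and 1.79 and 1.75 at 16.8 mM, a highest over lowest of 1.10. That of *Col1a1* to *Col1a2* ran from 2.20 to 3.26, a highest over lowest of 1.48. The log2 fold change was 0.32 for *Col4a1* (SE 0.26, 95% interval -0.36 to 1.01, limma adjusted p = 0.376) and 0.34 for *Col4a2* (SE 0.25, interval -0.32 to 0.99, limma adjusted p = 0.340). Without replicate 2 at 2.8 mM these values were 0.0012 and 0.02, and without replicate 1 at 2.8 mM they were 0.65 for both.

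*Sparc*, *Dcn* and *Fn1* encode secreted proteins that bind collagens. SPARC is a collagen-binding matricellular protein, decorin is a small leucine-rich proteoglycan that decorates collagen fibrils, and fibronectin is an adhesive glycoprotein on which cells pull through integrins. *Sparc* (chr11:55208002-55233582, minus strand, 10 exons) measured 1.83 and 0.978 RPKM at 2.8 mM and 1.86 and 1.41 RPKM at 16.8 mM. *Dcn* (chr10:96942245-96980761, plus strand, 8 exons) measured 0.112 and 0.0473 RPKM at 2.8 mM and 0.102 and 0.0824 RPKM at 16.8 mM. *Fn1* (chr1:71632098-71699774, minus strand, 44 exons) measured 0.126 and 0.0673 RPKM at 2.8 mM and 0.165 and 0.124 RPKM at 16.8 mM. The groups overlapped for all 3 genes, and replicate 2 at 2.8 mM was the lowest library for each. For *Fn1* the mean at 16.8 mM was 1.5 times that at 2.8 mM, the largest ratio among the 10 genes, though its 16.8 mM replicate 2 lay just below its 2.8 mM replicate 1. The log2 fold change was 0.26 for *Sparc* (SE 0.31, 95% interval -0.58 to 1.09, limma adjusted p = 0.559) and 0.33 for *Fn1* (SE 0.18, interval -0.15 to 0.81, limma adjusted p = 0.227). *Fn1* passed the threshold in 1 of 10 alternatives, voom on reconstructed reads, with a log2 fold change of 0.63 and an adjusted p of 0.0250, where adjusted p over its alternatives ran from 0.0250 to 0.330. *Fn1* reached the minimum mean of 0.1 RPKM only through the 16.8 mM libraries, with means of 0.0965 RPKM at 2.8 mM and 0.145 RPKM at 16.8 mM. *Dcn*, with a mean under the minimum of 0.1 RPKM, was not tested in the main analysis. With no minimum its log2 fold change was 0.12 (limma adjusted p = 0.740).

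*Pdgfrb* and *Acta2* mark cells rather than matrix. *Pdgfrb* encodes the receptor for PDGF-B through which endothelial cells recruit pericytes. *Pdgfrb* (plus strand, 23 exons) measured 0.486 and 0.258 RPKM at 2.8 mM and 0.423 and 0.337 RPKM at 16.8 mM, with the 2.8 mM libraries again at both ends. *Acta2* (chr19:34315580-34329826, minus strand, 9 exons) measured 0.681 and 0.655 RPKM at 2.8 mM and 0.558 and 0.495 RPKM at 16.8 mM. Its 2.8 mM libraries differed by 1.04-fold, against 1.89-fold for *Pdgfrb*. The ratio of *Acta2* to *Pdgfrb* was 1.40 and 2.54 at 2.8 mM and 1.32 and 1.47 at 16.8 mM, so that replicate 2 at 2.8 mM stood alone with a high ratio. The log2 fold change was 0.06 for *Pdgfrb* (SE 0.26, 95% interval -0.63 to 0.75, limma adjusted p = 0.867). For *Acta2* it was -0.30 (SE 0.08, interval -0.52 to -0.08, unadjusted p = 0.0184, limma adjusted p = 0.0570), with a mean at 16.8 mM of 0.787 times that at 2.8 mM. Of 11 alternatives, 4 put *Acta2* past the threshold, namely at least 0.1 RPKM in every library, median centring, quantile normalization and a block for the replicate number, under which 35.7%, 40.4%, 41.3% and 42.8% of all transcripts passed. The change of *Acta2* was smaller after centring or normalization, with a log2 fold change of -0.19 after median centring and -0.17 after quantile normalization. Its adjusted p ran from 0.0372 to 0.106 over the alternatives. With any 1 library left out its log2 fold change stayed between -0.37 and -0.22, with adjusted p from 0.0765 to 0.252.

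Over all transcripts tested, 29.8% passed the test, with 8.68% higher and 21.2% lower at 16.8 mM (1409 and 3436 of 16234). Centring each library on its median turned this split to 3043 higher and 3517 lower. The member with an unadjusted p under 0.05 was *Acta2*, and 1 of 10 passed with voom (*Fn1*), which called 42.3% of all transcripts. Groups that did not overlap were seen in 1 of the 10 members, and 49.2% of transcripts tested had such groups and were lower at 16.8 mM like *Acta2*. Log2 fold changes were above 0 for 7 of the 9 members and for 34.9% of transcripts tested, with a median of 0.16 over the members and -0.12 over all. After median centring the medians were 0.27 and -0.01. Standard errors of the members ran from 0.08 to 0.39 and exceeded the median over all transcripts, 0.10, for 8 of 9.

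**Figure D2:**
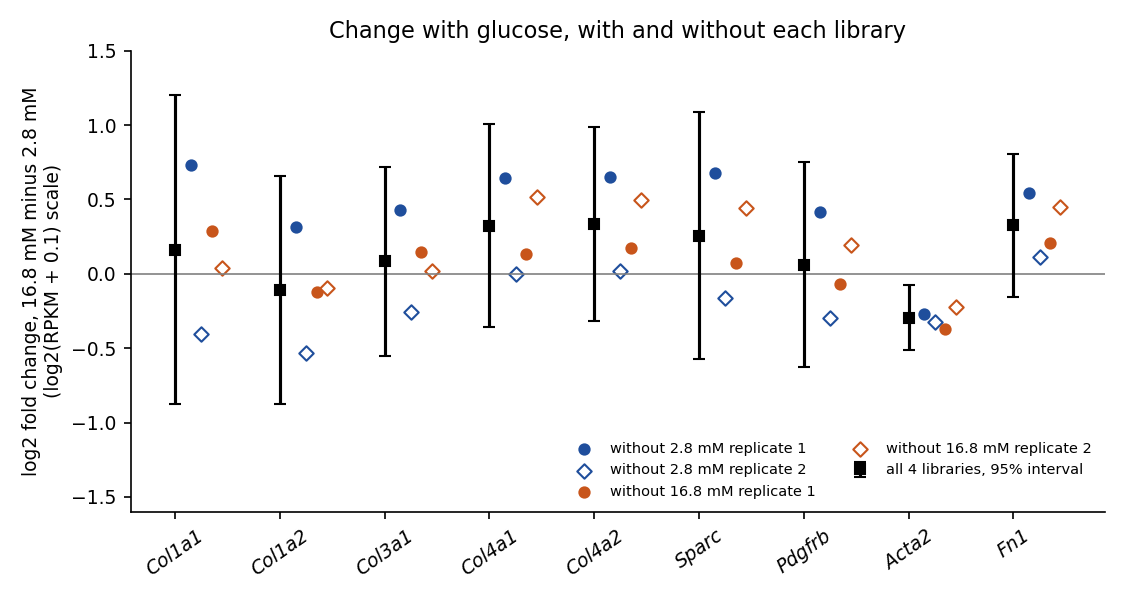
Log2 fold change of the 9 members tested, 16.8 mM minus 2.8 mM glucose on the log2(RPKM + 0.1) scale. Black squares are the fit on all 4 libraries with its 95% interval, and colored points are fits without 1 library. Only the interval of *Acta2*, -0.52 to -0.08, lies apart from 0, and for the other 8 genes the blue points, without a 2.8 mM library, lie farthest from the squares.

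The direction turned on which 2.8 mM library was used for 5 of the 9 members. Without replicate 2 at 2.8 mM, the log2 fold changes were below 0 for 6 of the 9 members, with a median of -0.26 (median over all transcripts -0.18). Those of *Col1a1*, *Col3a1*, *Sparc* and *Pdgfrb* changed sign, to -0.40, -0.26, -0.16 and -0.29. Without replicate 1 at 2.8 mM, they were above 0 for 8 of 9, with a median of 0.54 (-0.08 over all), and that of *Col1a2* became 0.31. Leaving out a 16.8 mM library moved the members less, to medians of 0.13 without replicate 1, where *Pdgfrb* turned to -0.07, and 0.19 without replicate 2. The lone library of a group was assumed in these fits to vary like the other group.

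The gap between the 2.8 mM libraries was shared by most members. Between replicates 1 and 2 at 2.8 mM the median difference over the members tested was 0.68 on the log2 scale, against 0.09 over all transcripts tested. At 16.8 mM it was 0.24 against 0.10. Replicate 1 was the higher library for 10 of 10 members at 2.8 mM and for 8 of 10 at 16.8 mM, against 78.7% and 81.5% of transcripts tested. The exceptions at 16.8 mM were *Col1a1* and *Col3a1*. Summed over the 10 genes, the level was 7.05 and 3.91 RPKM at 2.8 mM and 6.24 and 5.54 RPKM at 16.8 mM.

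Lists of other matrix and stromal genes and of markers of other islet cells were set beside the members. Of 20 other collagens, 8 passed the minimum of 0.1 RPKM, and all 8 were higher in replicate 1 than in replicate 2 at 2.8 mM, with a median difference of 0.67 on the log2 scale. *Col6a1*, a chain of the beaded-filament collagen VI, measured 0.524 and 0.236 RPKM at 2.8 mM and 0.418 and 0.349 RPKM at 16.8 mM, and *Col6a3*, another chain of it, measured 0.234 and 0.109 RPKM at 2.8 mM and 0.215 and 0.244 RPKM at 16.8 mM. Both repeated the low value in replicate 2 at 2.8 mM. Of 33 proteoglycans, elastic fibre and matricellular genes 13 were tested, and all 13 were higher in replicate 1 at 2.8 mM, by a median of 0.51. In this list *Mgp*, an inhibitor of matrix calcification, measured 10.3 and 5.54 RPKM at 2.8 mM and 6.14 and 5.29 RPKM at 16.8 mM, whereas *Emilin1*, an elastic fibre glycoprotein, ran from 5.87 to 6.95 RPKM.

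Of 29 fibroblast, pericyte and smooth muscle markers 15 were tested, and 14 of them were higher in replicate 1 at 2.8 mM, by a median of 0.30. *Vim*, the intermediate filament of mesenchymal cells, measured 3.92 and 2.38 RPKM at 2.8 mM and 4.70 and 3.71 RPKM at 16.8 mM. *S100a6*, a calcium-binding protein of fibroblasts and other cells, measured 4.07 and 4.01 RPKM at 2.8 mM and 4.42 and 4.68 RPKM at 16.8 mM, without such a gap. Summed, the list measured 15.5 and 12.0 RPKM at 2.8 mM and 17.1 and 15.2 RPKM at 16.8 mM. The other 14 markers of the list lay under the minimum of 0.1 RPKM over the span, and none was at 0 in all libraries. *Rgs5*, a marker of pericytes, was above the minimum at 0.139 and 0.101 RPKM at 2.8 mM and 0.161 and 0.143 RPKM at 16.8 mM.

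Markers of other cell types moved with the libraries too. The 12 endothelial markers summed to 7.34 and 5.17 RPKM at 2.8 mM and 8.91 and 6.21 RPKM at 16.8 mM, higher in replicate 1 at both concentrations. The 12 macrophage and leukocyte markers summed to 26.1 and 19.5 RPKM at 2.8 mM and 28.3 and 22.7 RPKM at 16.8 mM, and the 5 alpha cell markers, led by *Gcg*, to 2172 and 1665 RPKM at 2.8 mM and 2114 and 1486 RPKM at 16.8 mM. The 12 acinar markers, led by the digestive protease precursor *Ctrb1*, went the other way, with 111 and 306 RPKM at 2.8 mM and 261 and 534 RPKM at 16.8 mM. The 8 beta cell markers, led by *Ins2*, summed to 22936 and 20586 RPKM at 2.8 mM and to 43896 and 41148 RPKM at 16.8 mM. Singly, 7 of the 8 were higher in replicate 1 at 2.8 mM but only 2 of the 8 at 16.8 mM. Replicate 2 thus had less of the stromal, endothelial, macrophage and alpha cell lists and more of the acinar list at each concentration. The part of these cell types in the members' values was not tested.

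**Figure D3:**
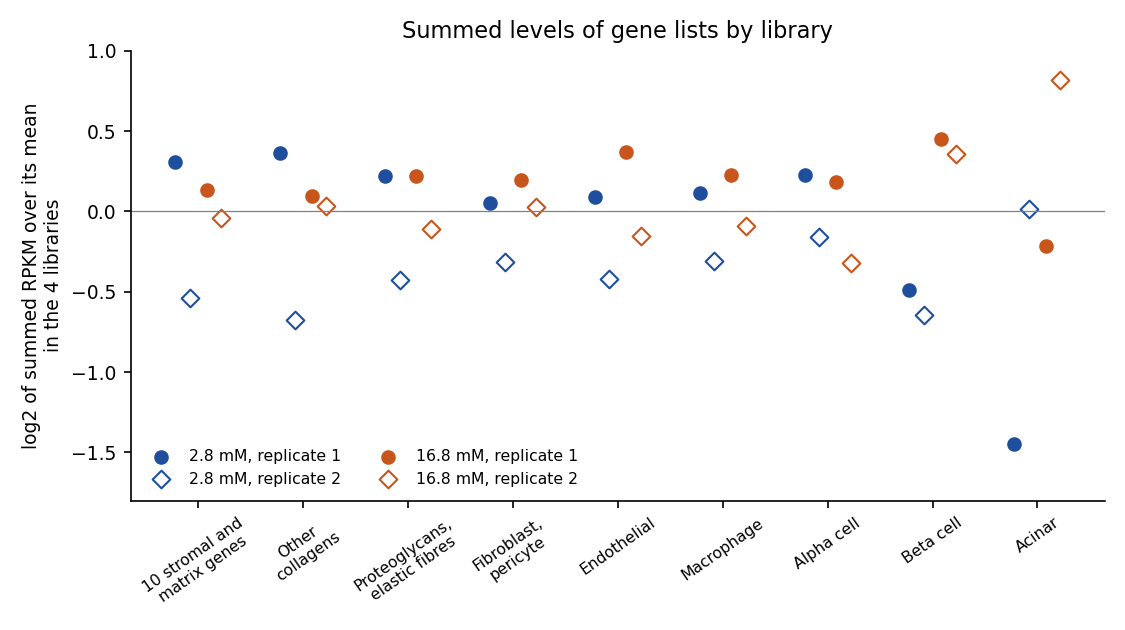
Summed RPKM of the 10 genes and of 8 gene lists in each library, as the log2 of the sum over its mean in the 4 libraries. The open blue diamond, 2.8 mM replicate 2, is lowest for the members (3.91 RPKM against 5.54 to 7.05 RPKM) and for the collagen, proteoglycan, fibroblast, endothelial and macrophage lists, whereas the acinar list is lowest in 2.8 mM replicate 1 (111 RPKM).

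To see how the members differed from each other, the log2 RPKM of each was taken relative to the mean of the other 9 in the same library, a measure chosen after the data were seen. On this scale 6 of the 10 genes had groups that did not overlap. *Fn1* (by 0.49), *Col4a2* (by 0.28) and *Col4a1* (by 0.21) were higher at 16.8 mM, and *Acta2* (-0.61), *Col1a2* (-0.36) and *Pdgfrb* (-0.12) were lower. The same values relative to the mean of all 10 did not overlap for 44.9% of transcripts, with 6.41% higher and 38.5% lower. As each member is set against the others, rises and falls on this scale must balance within the set. Transcripts outside the set carry no such limit, so these shares are not a like comparison. The ratio of *Fn1* to *Pdgfrb* was 0.258 and 0.261 at 2.8 mM and 0.390 and 0.369 at 16.8 mM, so the gap between the groups was wider than the gaps within them. This pair was among those picked by hand, and how common such a gap is among other pairs was not counted. For *Acta2* replicate 2 at 2.8 mM stood alone, with 1.36 against values from 0.28 to 0.45 in the other libraries, so that its difference on this scale was set mainly by that library. No test was made of these differences.

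**Figure D4:**
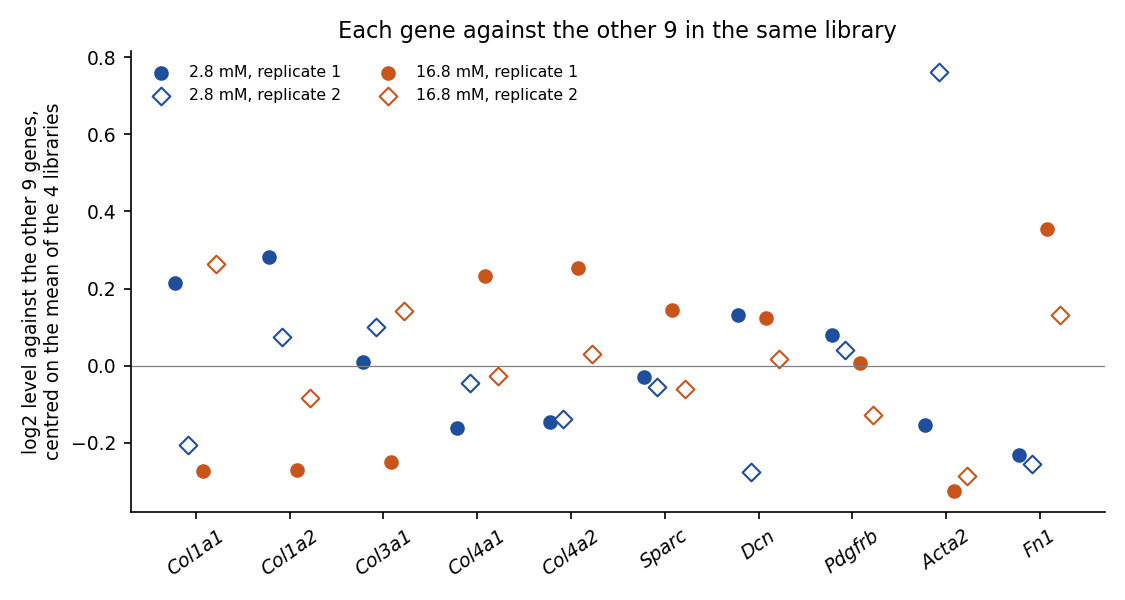
Log2 RPKM of each gene minus the mean log2 RPKM of the other 9 in the same library, centred on its own mean over the 4 libraries. Orange points (16.8 mM) lie above both blue points (2.8 mM) for *Fn1*, *Col4a1* and *Col4a2* and below them for *Col1a2*, *Pdgfrb* and *Acta2*, where the 2.8 mM replicate 2 of *Acta2* is far above the other libraries.

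Matrix genes that passed the test with glucose lay outside the members, and the counts below stand beside the 8.68% higher and 21.2% lower of all transcripts tested. Among the 16 tested of 23 matrix proteases and their inhibitors, 3 rose and 0 fell (18.8% in all), with a median log2 fold change of 0.32 against -0.12 over all. *Plat*, tissue-type plasminogen activator, measured 0.280 and 0.297 RPKM at 2.8 mM and 1.51 and 1.26 RPKM at 16.8 mM, a log2 fold change of 1.93 (SE 0.11, limma adjusted p = 0.00437). *Mmp14*, a membrane-bound collagenase and among the most abundant of the list, measured 1.32 and 0.700 RPKM at 2.8 mM and 1.16 and 1.06 RPKM at 16.8 mM, with the low value in replicate 2 at 2.8 mM that the members had. The call for *Plat* held without any 1 library (adjusted p from 0.0148 to 0.0264).

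Of 26 genes for collagen synthesis, folding and crosslinking 16 were tested, with 2 higher, 2 lower and a median of 0.18. *Bmp1*, the protease that cleaves the C-terminal propeptide from fibrillar procollagens, measured 0.472 and 0.415 RPKM at 2.8 mM and 0.882 and 0.932 RPKM at 16.8 mM, a log2 fold change of 0.89 (SE 0.09, limma adjusted p = 0.00813). *Loxl2*, a lysyl oxidase that crosslinks collagens, measured 0.255 and 0.256 RPKM at 2.8 mM and 0.520 and 0.556 RPKM at 16.8 mM, a log2 fold change of 0.84 (SE 0.07, limma adjusted p = 0.00675). Both genes were steadier between replicates than the fibrillar collagen members. They were named because they passed the test, which favours genes with little spread, so this steadiness follows in part from that choice. Both calls were lost without replicate 2 at 16.8 mM. With any 1 library left out the log2 fold change stayed between 0.81 and 0.97 for *Bmp1* and between 0.80 and 0.88 for *Loxl2*. *P4hb* and *Ppib*, which help proteins fold in the endoplasmic reticulum of all secretory cells, had the highest levels in the list, from 60.1 to 78.9 RPKM and from 10.4 to 12.8 RPKM.

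Among the other collagens 1 of 8 tested passed the threshold, *Col27a1*, a fibrillar collagen known from cartilage, with 0.0568 and 0.0465 RPKM at 2.8 mM and 0.146 and 0.156 RPKM at 16.8 mM. Its log2 fold change was 0.73 (SE 0.09, limma adjusted p = 0.0111), and the call was lost without either 16.8 mM library (adjusted p = 0.0527 and 0.0650). It reached the minimum mean of 0.1 RPKM only through the 16.8 mM libraries, and with at least 0.1 RPKM in every library 0 of 4 other collagens passed. Of 21 basement membrane genes 10 were tested, with 0 higher, 1 lower and a median of 0.14. *Lamb2*, a laminin chain of vascular basement membranes, measured 0.330 and 0.238 RPKM at 2.8 mM and 0.358 and 0.338 RPKM at 16.8 mM. The lists of proteoglycans and of fibroblast, pericyte and smooth muscle markers had 0 of 13 and 0 of 15 genes past the threshold with limma. With voom, which called 42.3% of all transcripts, 8 and 4 genes passed among the 24 it tested of each.

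Of 25 integrins and other matrix receptors 16 were tested, with 3 higher, 2 lower and a median of 0.07. *Itgb8*, a partner of alpha-v integrin that activates TGF-beta, measured 0.0646 and 0.0528 RPKM at 2.8 mM and 0.150 and 0.134 RPKM at 16.8 mM, a log2 fold change of 0.61 (SE 0.09, limma adjusted p = 0.0162). *Itgb5*, which binds vitronectin with alpha-v, measured 0.508 and 0.451 RPKM at 2.8 mM and 0.277 and 0.256 RPKM at 16.8 mM, a log2 fold change of -0.66 (SE 0.09, limma adjusted p = 0.0126). The call for *Itgb8* was lost without either 16.8 mM library and that for *Itgb5* without any library but replicate 2 at 2.8 mM (adjusted p up to 0.0699 and 0.0716). Like *Col27a1*, *Itgb8* reached the minimum mean only through the 16.8 mM libraries. The levels of *Ddr1*, a collagen receptor kinase, and *Itgb1*, the common beta chain of collagen and laminin receptors, ran from 5.13 to 6.39 RPKM and from 3.19 to 3.73 RPKM.

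Of 23 genes of TGF-beta and PDGF signalling 12 were tested, with 1 higher, 4 lower and a median of 0.09. *Smad2*, which carries the TGF-beta signal to the nucleus, measured 0.676 and 0.703 RPKM at 2.8 mM and 0.424 and 0.409 RPKM at 16.8 mM, a log2 fold change of -0.61 (SE 0.07, limma adjusted p = 0.00990). *Tgfbr1*, the type I receptor, measured 0.876 and 0.819 RPKM at 2.8 mM and 0.592 and 0.582 RPKM at 16.8 mM, a log2 fold change of -0.46 (SE 0.07, limma adjusted p = 0.0171). Both calls were lost without any 1 library (adjusted p from 0.0511 to 0.0603 and from 0.0656 to 0.112). *Ltbp3*, which binds latent TGF-beta, and the pseudoreceptor *Bambi* ran from 1.55 to 1.92 RPKM and from 1.23 to 1.83 RPKM.

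**Figure D5:**
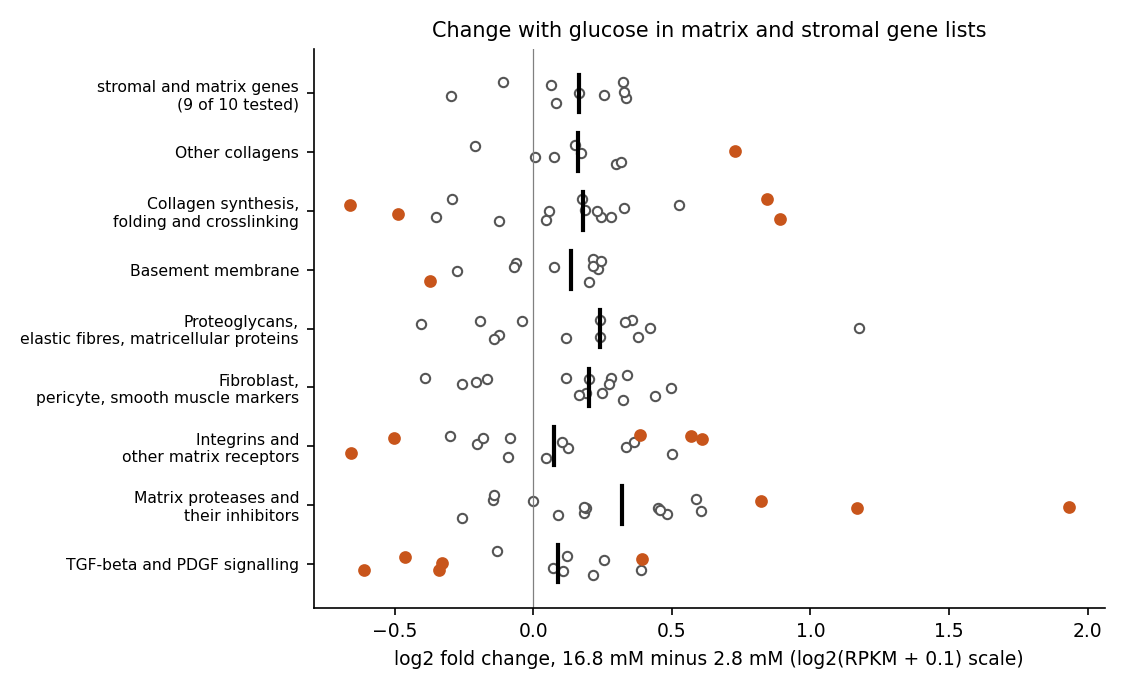
Log2 fold change, 16.8 mM minus 2.8 mM glucose on the log2(RPKM + 0.1) scale, of each gene tested in the members and in 8 matrix and stromal lists, with filled points for genes past an adjusted p of 0.05 and bars at medians. No point of the members is filled, and *Plat*, at 1.93, is the farthest to the right.

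The transcripts whose profile over the 4 libraries lay nearest to the mean profile of the members tested, by Euclidean distance of centred log2(RPKM + 0.1) values, were *Gimap9*, *Cd1d1*, *Mir684-1*, *Lefty2* and *Axl*, at distances from 0.0487 to 0.0751. The members' mean profile was 0.27 and -0.40 at 2.8 mM and 0.14 and -0.01 at 16.8 mM. *Gimap9*, a GTPase gene of lymphocytes, measured 0.246 and 0.120 RPKM at 2.8 mM and 0.205 and 0.184 RPKM at 16.8 mM. *Axl*, a receptor kinase of macrophages and mesenchymal cells, measured 0.361 and 0.211 RPKM at 2.8 mM and 0.345 and 0.303 RPKM at 16.8 mM. With 4 libraries many transcripts can lie this near, and the likeness is a description only.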

How the data were processed

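RNA-seq of whole islets gave 4 libraries, 2 at 2.8 mM and 2 at 16.8 mM glucose, grouped by the treatment in the labels. The authors deposited 1 table of RPKM values with 33923 rows, of which 28047 were distinct, and every column of sample values was used. STAR, bedtools, DESeq and mm9 are named in the submitters' processing notes. For the alpha and beta cell libraries the methods give STAR for mapping to mm9, bedtools for counting over RefSeq exons and DESeq for the comparison, and how the islet table was made is not described apart. The library kit does not mark strand, so reads of overlapping genes cannot be told apart. This touches *Col4a1* and *Col4a2* (22 bp) and, on the opposite strand, *Apol7d* at *Fn1* (364 bp, mean 0.0019 RPKM). It also touches the annotated antisense genes Gm17329 at *Col1a1*, Gm15418 at *Col4a1* and Gm15419 at *Col4a2*.

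Depth was recovered from the steps of short RNA values, of which 76.1 to 80.8% came out whole (tolerance 0.02 reads). Values of longer transcripts were whole for 74.6 to 77.2% over the genomic span and for 8.56 to 11.5% over exons (tolerance 0.05). Reads were therefore reconstructed over the span, from GENCODE annotation of NCBI build 37 (mm9), with PCR duplicates included. The span was that of the longest annotated transcript of each gene, so reads are overstated where the entry in the table is shorter. The voom fit rests on these reads. Precision is limited by the 2 libraries per group and, for genes with few reads such as *Dcn* (90 to 250), by depth as well. An exact permutation test of 2 against 2 cannot go below p = 0.33.

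The 16234 distinct transcripts whose mean reached 0.1 RPKM were taken to log2(RPKM + 0.1). The test was limma (version 3.58.1, R 4.3.3) with eBayes, a trend of variance on level, and Benjamini-Hochberg adjustment at 0.05. Fold changes on this scale understate the change of low genes. The minimum of 0.1 RPKM was used since values over introns are low for long genes. The scripts were tested on simulated data. Python 3.11.15 with scipy 1.17.1, numpy 2.4.6, pandas 2.3.3 and matplotlib 3.10.9 served for the rest. Alternatives were other pseudocounts and minimums, median centring, quantile normalization, no trend, the replicate block, voom on reconstructed reads with a mean of at least 20, 1 entry per gene, the ratio of means and leaving out each library.

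The members and lists were chosen with earlier results of these data known. The rule for named genes took, besides the members, the 2 genes of highest mean and the 2 largest changes past the threshold in each of 8 matrix lists, the gene of highest mean in each of 9 marker lists, and the 5 nearest profiles. *Rgs5* was named after its values were seen. Promoters came from RefSeq on GRCm38.p6. Some genes named by this rule are not reported here. The alpha and beta cell libraries of the study were not analysed here.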

Additional observations from a re-analysis of the deposited data

How the results depend on the processing

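Calls over all transcripts fell to 2593 (822 higher at 16.8 mM) with a minimum mean of 1 RPKM and to 2628 (838 higher) with 0.5 RPKM added as well, and were 7391 (2358 higher) with voom on reconstructed reads, against 4845 (1409 higher). Higher calls were 3043 after median centring and 2811 after quantile normalization. With 1 library left out, 385 to 1498 transcripts passed, 226 to 615 of them higher. Members past the threshold were 0 in every such fit, and 1 with at least 0.1 RPKM in every library, median centring, quantile normalization or the replicate block (*Acta2* each time) and 1 with voom (*Fn1*). The members' median log2 fold change ran from -0.26 to 0.54 over the fits without 1 library. In those fits *Col1a1* ran from -0.40 to 0.73, *Col1a2* from -0.53 to 0.31, *Col3a1* from -0.26 to 0.43, *Sparc* from -0.16 to 0.68, *Pdgfrb* from -0.29 to 0.42, *Col4a1* from 0.0012 to 0.65, *Col4a2* from 0.02 to 0.65 and *Fn1* from 0.11 to 0.54, and after median centring *Col1a2* was 0.00087. In the fit with the replicate block 6950 transcripts passed, 2041 of them higher, and the adjusted p of *Acta2* was 0.0372 (0.0372 to 0.106 over its alternatives). Libraries of the same number deviated together only weakly by 1 correlation (0.13, with 2 numbers), but some marker lists shifted alike. The median of replicate 1 minus replicate 2, in log2 at low and then high glucose, was -1.40 and -1.11 for acinar markers. It was 0.48 and 0.47 for endothelial and 0.38 and 0.25 for alpha cell markers, against 0.09 and 0.10 over all transcripts tested. Among the lists, only other collagens (0.67 and -0.01) and beta cell markers (0.09 and -0.21) changed sign. Nothing in the labels says that a number marks a shared batch, so the pairing was not used in the main test. Whether it does was not tested. Of the values of single genes over alternatives other than leaving out a library, 236 kept their direction and side of the threshold, 5 passed it and 6 lost it (2 of them for *Ins2*). Genes past the threshold, given as the number reported and then the range over 11 alternatives (not those with the minimum of 1 RPKM or without a library), were 4 and 4 to 9 for collagen synthesis, 1 and 0 to 4 for other collagens, 1 and 0 to 5 for basement membrane, 0 and 0 to 8 for proteoglycans, 0 and 0 to 4 for fibroblast, pericyte and smooth muscle markers, 5 and 4 to 9 for integrins, 3 and 1 to 8 for proteases, and 5 and 5 to 10 for TGF-beta and PDGF signalling. Among marker lists they were 0 and 0 to 10 for acinar, 1 and 0 to 5 for endothelial, 6 and 2 to 8 for beta cell, 1 and 1 to 3 for duct and for macrophage, 1 and 1 to 2 for Schwann cell, and 0 and 0 to 1 for alpha, delta and mesothelial markers. With 1 library left out they were 0 for TGF-beta and PDGF signalling, basement membrane, endothelial, acinar, alpha, delta and mesothelial lists, 0 to 3 for collagen synthesis and integrins, 0 to 4 for other collagens, 0 to 1 for proteoglycans, fibroblast and duct lists, 1 to 5 for proteases and beta cell markers, and 1 for macrophage and Schwann cell markers. The cause of these shifts was not tested.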

Other observations

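More marker lists of other cell types were set beside the members. The limma counts below stand beside the 8.68% higher and 21.2% lower of all transcripts tested. Of 8 Schwann cell markers 3 were tested, with 0 higher and 1 lower. Of 5 mesothelial markers only *Msln* was tested, at 3.17 and 2.90 RPKM at 2.8 mM and 2.65 and 2.22 RPKM at 16.8 mM. Among endothelial markers 1 of 11 tested rose and 0 fell, and *Egfl7*, a secreted endothelial protein and the most abundant of them, measured 1.93 and 1.36 RPKM at 2.8 mM and 2.77 and 1.95 RPKM at 16.8 mM. Among macrophage and leukocyte markers 1 of 9 tested rose, and *Cd68*, a lysosomal glycoprotein of macrophages, measured 8.71 and 6.76 RPKM at 2.8 mM and 9.74 and 7.05 RPKM at 16.8 mM. In both genes replicate 1 exceeded replicate 2 at each concentration, as for *Pdgfrb*, *Sparc* and the type IV collagens. Most transcripts tested did so too, 78.7% at 2.8 mM and 81.5% at 16.8 mM. Of 12 acinar, 5 alpha cell and 3 delta cell markers tested 0 passed with limma, with median log2 fold changes of 1.06, -0.10 and 0.28. Voom, which called 42.3% of all transcripts, called 10, 1 and 1 of them. Limma with the replicate block, which called 42.8% of all transcripts, called 10 acinar markers and 1 alpha cell marker. Of the duct list, 1 of 6 markers tested fell.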
